A study of Homo sapiens with 6 samples.

Results

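The genes described here are 39 human genes that act on pre-mRNA splicing and RNA binding: 11 SR proteins, the 2 TRA2 proteins, 20 heterogeneous nuclear ribonucleoproteins (hnRNPs, with PTBP1 counted among them as hnRNP I), the cold-inducible proteins RBM3 and CIRBP, and the 4 CDC2-like kinases CLK1 to CLK4. They were taken by symbol from the 60664 gene rows of the deposited table. The set was chosen from the rises of SRSF3, HNRNPM and RBM3 in the same comparison that is described below, so the members' fold changes are a description of that comparison and not a test of it. All 39 members passed the filter on low counts, which left 17638 genes in the fit. The samples were 6 mRNA libraries of HCT8, a human colorectal cancer cell line, grown in DMEM with fetal bovine serum. The cells of 3 samples received a control plasmid and carry the genotype label WT, and those of 3 samples received a plasmid that overexpresses GPT1, the alanine aminotransferase that the gene GPT encodes. The plasmids' promoter, the time after transfection and the share of cells that took up plasmid are not stated in the labels. The labels also do not say whether the replicates were separate cultures, so a p-value covers the spread among these samples alone, which may be technical.

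SR proteins are RNA-binding splicing factors with a tail rich in arginine and serine, and they help the splicing machinery to recognise exons. CLK kinases and SRPK kinases phosphorylate that tail, and phosphorylation governs where SR proteins lie in the nucleus and how they act. The hnRNPs coat nascent transcripts and often counter SR proteins at splice sites. Many SR proteins and hnRNPs limit their own level by including a poison exon, which marks the transcript for nonsense-mediated decay. RBM3 and CIRBP are small RNA-binding proteins with a glycine-rich tail, best known for their induction by mild cold.

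The sequence before the transcription start is shown for SRSF3, HNRNPM and RBM3, the 3 genes around which the set was chosen, and for CIRBP, the closest relative of RBM3, whose groups overlapped. The sequences are those of RefSeq on GRCh38.p14, and each covers the 250 bases before the annotated start on the plus strand, written from 5′ to 3′. Capitals mark every match, on either strand, to 3 short motifs: the CCAAT box (CCAAT or ATTGG), the core of the cAMP response element (TGACGT or ACGTCA) and the E-box (CACGTG, which reads the same on both strands). Motif matches were counted separately, so a base could belong to more than a single match. SRSF3 lies at chr6:36594112-36594361, HNRNPM at chr19:8444725-8444974, RBM3 at chrX:48574234-48574483 and CIRBP at chr19:1269082-1269331. GENCODE 29, used for the gene spans below, opens SRSF3, HNRNPM and RBM3 within these stretches and CIRBP before its stretch.
SRSF3: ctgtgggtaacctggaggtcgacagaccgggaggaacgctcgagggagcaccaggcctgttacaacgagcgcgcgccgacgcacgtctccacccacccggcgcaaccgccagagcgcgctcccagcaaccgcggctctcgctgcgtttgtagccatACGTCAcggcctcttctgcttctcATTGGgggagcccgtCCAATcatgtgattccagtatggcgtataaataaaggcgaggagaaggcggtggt
HNRNPM: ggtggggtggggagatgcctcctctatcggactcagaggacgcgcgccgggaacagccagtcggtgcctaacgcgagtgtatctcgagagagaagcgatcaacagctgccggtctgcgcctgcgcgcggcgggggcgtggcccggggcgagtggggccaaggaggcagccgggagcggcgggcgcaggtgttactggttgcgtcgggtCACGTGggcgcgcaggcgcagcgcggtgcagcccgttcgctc
RBM3: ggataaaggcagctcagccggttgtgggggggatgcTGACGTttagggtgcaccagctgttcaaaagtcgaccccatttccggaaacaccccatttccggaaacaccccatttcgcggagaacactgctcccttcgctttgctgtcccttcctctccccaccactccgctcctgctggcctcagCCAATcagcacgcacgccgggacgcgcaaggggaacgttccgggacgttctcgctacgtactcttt
CIRBP: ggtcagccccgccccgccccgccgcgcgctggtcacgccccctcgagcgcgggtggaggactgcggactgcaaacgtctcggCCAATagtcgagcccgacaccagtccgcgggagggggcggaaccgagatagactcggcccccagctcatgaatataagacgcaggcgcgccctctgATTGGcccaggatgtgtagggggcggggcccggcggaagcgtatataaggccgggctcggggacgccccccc

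These stretches held 2 CCAAT boxes and 1 cAMP response core in SRSF3, 1 E-box in HNRNPM, 1 CCAAT box and 1 cAMP response core in RBM3, and 2 CCAAT boxes in CIRBP. For the share over all genes, windows from 250 bases before to 50 bases after the start were searched in 27305 RefSeq promoters. Of the members, 36 had such a window, and SRSF2, TRA2A and HNRNPA1 had none. A CCAAT box was found in 18 of the 36 members' windows (50%) and in 35.7% of all promoters. The cAMP response core was found in 8 of 36 (22.2%; SRSF1, SRSF3, SRSF5, TRA2B, HNRNPA2B1, HNRNPH2, RBM3 and CLK4) and in 8.32% of all promoters. The E-box was found in 9 of 36 (25%) and in 7.43% of all promoters. The median GC content of these windows was 64.5% in the members and 58.3% over all promoters. Of the 8 members with a cAMP response core, 4 were higher (SRSF1, SRSF3, SRSF5 and RBM3), 1 was lower (CLK4) and 3 did not pass the threshold in the comparison below. Of the 18 with a CCAAT box, SRSF3, SRSF8, HNRNPA0, HNRNPF and RBM3 were higher and the rest did not pass. Of the 9 with an E-box, HNRNPM was higher and CLK2 and CLK4 were lower. Over all 39 members, 13 were higher and 3 lower. The set was chosen around SRSF3, HNRNPM and RBM3, so nothing is read from these splits. A match describes letters in a window, and no binding was measured.

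Total counts per library ranged from 21255655 in control replicate 3 to 32487217 in control replicate 1. The row of GPT held 9, 14 and 3 counts in the control libraries and 105529, 96886 and 106063 in the GPT1 libraries, so the target followed the labels in every sample. Over the whole table, 1858 genes (10.5% of those tested) were higher and 2572 (14.6%) lower in the GPT1 samples at an adjusted p under 0.05 in edgeR's quasi-likelihood test. Of 15 markers of colorectal epithelium, 9 were expressed enough to be tested and 6 (KRT20, CDX1, CEACAM5, CEACAM6, GPA33 and MUC2) stayed under 1 CPM (counts scaled to library size) in every library. Of the 9, 8 were lower in the GPT1 samples and CDX2 was not past the threshold, at 41.7 and 45.3 CPM. Summed, the 15 genes reached 887 to 1040 CPM in the control libraries and 563 to 633 CPM in the GPT1 libraries. Most of that sum came from KRT8 (529 to 352 CPM) and KRT18 (261 to 171 CPM), while less abundant markers differed more, such as CDH1 (50.1 to 12.5 CPM), KRT19 (51.2 to 11.4 CPM), EPCAM (24.9 to 9.28 CPM) and VIL1 (12.3 to 3.17 CPM). Of 10 kidney and neural genes 4 were lower (EYA1, NEFL, NEFM and MAP2). That list summed to 530.0 to 621 CPM in control and 307 to 316 CPM in GPT1 libraries. Of 9 fibroblast genes 6 were tested and 4 stayed under 1 CPM in every library. COL6A3, LUM and ACTA2 (28.0 to 39.4 CPM) were higher. COL1A1 (18.6 to 15.5 CPM) and COL3A1 (3.67 to 3.19 CPM) had lower means in the GPT1 samples and did not pass. The fibroblast list summed to 52.7 to 55.6 CPM in control and 66.5 to 68.3 CPM in GPT1 libraries. Endothelial genes summed to at most 0.951 CPM and leukocyte genes to at most 2.86 CPM in any library. Whether these shifts have a part in the members' values was not tested, and in bulk RNA fewer cells of a kind and less RNA per cell cannot be told apart.

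In the GPT1 samples most SR proteins, SRSF3 first among them, together with HNRNPM and RBM3, stood above the control samples, the CLK kinases stood below them, and most hnRNPs did not differ past the threshold. Of the 39 members, 13 were higher past the threshold: SRSF1, SRSF2, SRSF3, SRSF5, SRSF6, SRSF7, SRSF8, SRSF9, TRA2A, HNRNPA0, HNRNPF, HNRNPM and RBM3. The 3 that were lower were CLK1, CLK2 and CLK4, kinases that act on SR proteins, and 23 members did not pass. For comparison, 10.5% of all tested genes were higher and 14.6% lower, and nothing is read from that difference because this contrast chose the set. The median log2 fold change (GPT1 over control) was 0.08 over the members and -0.02 over all tested genes. The values of the groups did not overlap in 15 members with higher GPT1 values (21.2% of all tested genes) and in 5 with lower ones (22.2% of all tested genes). Those past the threshold are among them, together with TRA2B and HNRNPU on the higher side and CLK3 and HNRNPH3 on the lower side. The count of 13 fell to 8 without control replicate 1, and to 6 without GPT1 replicate 1 or without GPT1 replicate 3. The count of 3 became 5 without control replicate 2, and 1 without GPT1 replicate 1 or without GPT1 replicate 3. SRSF2, SRSF3, SRSF7, HNRNPM, RBM3 and CLK2 kept their call at this threshold in all 15 alternative settings run. These settings all used the deposited counts, so they do not cover reads of overlapping genes on the opposite strand, as at CLK2 and SRSF2 (given below).

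**Figure D1:**
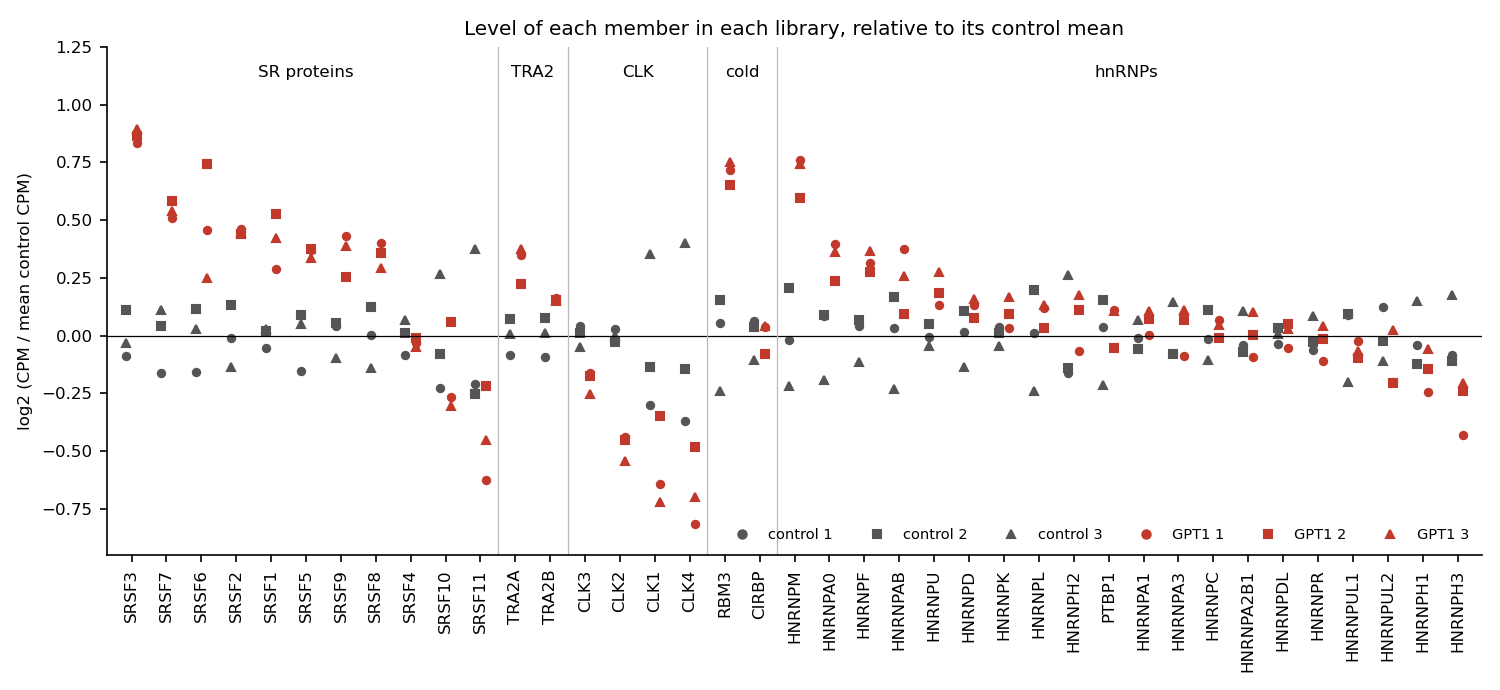
Each member's level in each of the 6 libraries, as log2 of its CPM over the mean of the 3 control libraries (y axis), with members grouped by role along the x axis; grey marks are control and red marks GPT1 libraries, and the shape gives the replicate. SRSF3, RBM3 and HNRNPM lie farthest above the control libraries, and the 4 CLK kinases lie below them.

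Among the SR proteins of the set, 8 of 11 were higher past the threshold, none was lower, and the median log2 fold change was 0.36. SRSF12 was listed with the SR-related proteins instead and did not pass (11.7 ± 1.67 to 9.70 ± 1.61 CPM, log2 fold change -0.26, adjusted p = 0.232, edgeR). SRSF3, the smallest classical SR protein, which also couples splicing to mRNA export and polyadenylation, stood at 201, 232 and 210.0 CPM in the control libraries and at 382, 391 and 399 CPM in the GPT1 libraries. The lowest GPT1 library lay far above the highest control library, and the spread within each group was small. The mean went from 214 ± 15.7 to 390.4 ± 8.36 CPM (SD, n = 3), a 1.82-fold difference with a log2 fold change of 0.86 ± 0.08 (SE). The gene (ENSG00000112081) spans chr6:36594353-36605600 on the plus strand in GENCODE 29. Leaving out each library in turn gave a log2 fold change between 0.83 and 0.92.

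SRSF7, the closest relative of SRSF3 in the family and likewise an export adaptor, stood at 92.4, 106 and 112 CPM in the control libraries and at 147, 155 and 150.2 CPM in the GPT1 libraries. Its groups did not overlap, and its log2 fold change was 0.54 ± 0.09. SRSF6, a regulator of alternative exons, had 41.0, 49.5 and 46.7 CPM in the control libraries against 62.7, 76.5 and 54.4 CPM in the GPT1 libraries. GPT1 replicate 3 lay closest to the control libraries and GPT1 replicate 2 highest, with no overlap and a log2 fold change of 0.50 ± 0.13. SRSF2, which binds exonic enhancers and is recurrently mutated in myeloid neoplasms, went from 222 ± 20.9 to 304 ± 2.65 CPM (log2 fold change 0.45 ± 0.09). SRSF1, the founding member of the family, went from 62.0 ± 1.90 to 82.8 ± 6.92 CPM (0.42 ± 0.09).

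The smaller rises among SR proteins were those of SRSF5 (131 ± 11.5 to 168 ± 2.39 CPM, log2 fold change 0.36 ± 0.09), SRSF9 (235 ± 13.5 to 301 ± 18.8 CPM, 0.36 ± 0.08) and SRSF8 (49.0 ± 4.47 to 62.6 ± 2.29 CPM, 0.35 ± 0.10). SRSF8 derives from a retrocopy of SRSF2. SRSF4, a large SR protein with a long arginine- and serine-rich tail, had 147, 156 and 163 CPM in the control libraries and 152, 154 and 149.9 CPM in the GPT1 libraries. Its GPT1 values lay inside the control range. SRSF10, which represses splicing when it is dephosphorylated, went from 147 ± 26.5 to 131 ± 18.8 CPM (-0.16 ± 0.14), with overlapping groups. SRSF11, which binds the U2AF complex, had 183, 178 and 274 CPM in the control libraries and 137, 182 and 155 CPM in the GPT1 libraries. Control replicate 3 stood apart and GPT1 replicate 2 reached the other control libraries, and the fold change of -0.42 ± 0.16 did not pass. It was -0.18 without control replicate 3, and it passed without control replicate 2 (-0.53) and without GPT1 replicate 2 (-0.51). Among those that rose, the threshold was missed without control replicate 1 by SRSF5 (0.30), SRSF6 (0.43) and SRSF8 (0.36). It was missed without GPT1 replicate 1 by SRSF5 (0.36), SRSF6 (0.52), SRSF8 (0.33) and SRSF9 (0.32), and without GPT1 replicate 3 by SRSF1 (0.41), SRSF5 (0.37), SRSF8 (0.38) and SRSF9 (0.35).

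TRA2A and TRA2B are SR-like proteins that bind GAA-rich exonic enhancers. TRA2A was at 53.2, 59.4 and 56.7 CPM in the control libraries and at 71.9, 65.9 and 73.2 CPM in the GPT1 libraries, without overlap (log2 fold change 0.32 ± 0.09). TRA2A missed the threshold without control replicate 1 (0.29), without GPT1 replicate 1 (0.30) and without GPT1 replicate 3 (0.29). TRA2B was at 177, 199 and 191 CPM against 212, 210.3 and 210.0 CPM, which did not overlap but gave a log2 fold change of 0.16 ± 0.08 that did not pass. The ratio of TRA2A to TRA2B counts within a library was 0.299 ± 0.00148 in the control and 0.334 ± 0.0183 in the GPT1 libraries (SD, n = 3).

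The CLK kinases, which phosphorylate SR proteins in the nucleus, were the members that fell: 3 of 4 passed the threshold and the median log2 fold change was -0.52. CLK2 had 90.4, 86.8 and 88.5 CPM in the control libraries and 65.3, 64.8 and 60.8 CPM in the GPT1 libraries. Both groups were tight and well apart, and the log2 fold change was -0.48 ± 0.08. Its counts are uncertain, because HCN3 on the opposite strand held 42.6% as many counts and the strand setting is not known. CLK1, which regulates the splicing of its own transcript, had 48.7, 54.5 and 76.5 CPM in the control libraries and 38.4, 47.0 and 36.3 CPM in the GPT1 libraries. Control replicate 3 was the highest and GPT1 replicate 2 the closest to the control libraries, and the log2 fold change was -0.56 ± 0.16. CLK1 missed the threshold without GPT1 replicate 1 (-0.52) and without GPT1 replicate 3 (-0.49), and without control replicate 3 it passed at -0.33. CLK4, the member with the lowest level per transcript length, had 10.4, 12.2 and 17.8 CPM in the control libraries and 7.63, 9.61 and 8.27 CPM in the GPT1 libraries. Control replicate 3 and GPT1 replicate 2 were again the highest of their groups. Its log2 fold change was -0.65 ± 0.19, and it missed the threshold without control replicate 3 (-0.39), without GPT1 replicate 1 (-0.58) and without GPT1 replicate 3 (-0.63). CLK3 had 98.7, 96.7 and 92.7 CPM against 85.9, 85.1 and 80.5 CPM, without overlap, and its log2 fold change of -0.20 ± 0.08 did not pass.

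Of the 20 hnRNPs, 3 rose, none fell past the threshold and the median log2 fold change was 0.06. HNRNPM, which binds GU-rich intronic sites and regulates alternative exons, had 278, 326 and 242 CPM in the control libraries and 477, 426 and 472 CPM in the GPT1 libraries. Its control libraries varied more than those of SRSF3, and every GPT1 library lay above them. The mean went from 282 ± 41.9 to 458 ± 28.2 CPM, a 1.62-fold difference with a log2 fold change of 0.70 ± 0.11. The gene (ENSG00000099783) spans chr19:8444767-8489114 on the plus strand. Leaving out each library in turn gave a log2 fold change between 0.62 and 0.82. HNRNPA0, an intronless member of the A/B family, went from 312 ± 33.9 to 393 ± 22.6 CPM (0.33 ± 0.09). HNRNPF, which binds G-rich tracts, went from 259.8 ± 17.4 to 324 ± 10.2 CPM (0.32 ± 0.08). HNRNPA0 missed the threshold without control replicate 1 (0.39), without GPT1 replicate 1 (0.30) and without GPT1 replicate 3 (0.32). HNRNPF missed it without GPT1 replicate 1 (0.32) and without GPT1 replicate 3 (0.29).

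The hnRNPs with the highest level per transcript length had overlapping groups. HNRNPC, which packages nascent RNA and binds uridine tracts, had 1455, 1590.4 and 1368 CPM in the control libraries and 1541, 1460.4 and 1519 CPM in the GPT1 libraries. All GPT1 values lay within the control range (log2 fold change 0.03 ± 0.08). HNRNPA1, a shuttling splicing repressor, had 1010.4, 979.5 and 1067 CPM against 1022, 1071 and 1098 CPM, and the groups overlapped (0.06 ± 0.08). HNRNPK, which binds C-rich sequence through KH domains, had 1045, 1026 and 987 CPM against 1043, 1088 and 1144 CPM, again overlapping (0.10 ± 0.08). The other A/B-type proteins HNRNPA2B1 (0.01 ± 0.09) and HNRNPA3 (0.03 ± 0.09) differed by less than their SE. HNRNPAB went from 529 ± 72.6 to 628 ± 61.5 CPM (0.25 ± 0.11) with overlapping groups, and it passed only when control replicate 2 was left out (0.34). HNRNPD, the AU-rich element binding protein AUF1, and its relative HNRNPDL had log2 fold changes of 0.12 ± 0.08 and 0.01 ± 0.08.

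HNRNPU, the scaffold attachment factor SAF-A, had 1025, 1068 and 998 CPM in the control libraries and 1129, 1169 and 1248 CPM in the GPT1 libraries. These did not overlap, and the log2 fold change of 0.20 ± 0.08 did not pass. Its relatives HNRNPUL1 (-0.06 ± 0.09) and HNRNPUL2 (-0.13 ± 0.11) had overlapping groups. Within the G-tract binding family, HNRNPH1 had a log2 fold change of -0.15 ± 0.09, HNRNPH2 of 0.08 ± 0.12 and HNRNPH3 of -0.29 ± 0.10, and none of them passed. HNRNPH3 was the hnRNP with separated groups on the lower side, at 295, 289.5 and 353 CPM against 232, 264 and 271 CPM. It passed without control replicate 2 (-0.34) and was -0.18 without control replicate 3. HNRNPL, which binds CA repeats, had 0.09 ± 0.11, HNRNPR had -0.03 ± 0.08 and PTBP1, the polypyrimidine tract binding protein, had 0.06 ± 0.10.

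Of the cold-inducible proteins, RBM3 rose and CIRBP did not pass the threshold. RBM3 had 210.4, 225 and 171 CPM in the control libraries and 333, 318 and 341 CPM in the GPT1 libraries. The groups were far apart, with a mean of 202 ± 27.9 against 330.4 ± 11.3 CPM, a 1.63-fold difference with a log2 fold change of 0.71 ± 0.10. The gene (ENSG00000102317) spans chrX:48574449-48579066 on the plus strand, and leaving out each library in turn gave between 0.62 and 0.79. CIRBP, named here after its values were seen, had 275, 270.1 and 244 CPM in the control libraries and 269.5, 249 and 271 CPM in the GPT1 libraries. Its GPT1 values lay within the control range, and the log2 fold change was 0.00 ± 0.08.

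Ratios of counts within a library, which depend on no scaling between libraries, were formed after the values were seen and are given without a test. The ratio of RBM3 to CIRBP was 0.766, 0.835 and 0.702 in the control libraries and 1.23, 1.28 and 1.26 in the GPT1 libraries, with CIRBP the more counted of the pair in every control library and RBM3 in every GPT1 library. The ratio of HNRNPM to PTBP1 was 0.468, 0.506 and 0.485 in the control libraries and 0.762, 0.762 and 0.756 in the GPT1 libraries. The 3 GPT1 values of this ratio were closer to each other than the CPM values of HNRNPM itself. SRSF3 to SRSF4 stood at 1.37, 1.48 and 1.29 against 2.52, 2.54 and 2.66. SRSF3 to its kinase gene CLK2 stood at 2.23, 2.67 and 2.37 against 5.84, 6.03 and 6.55. Other pairs moved less: HNRNPF to HNRNPH1 went from 0.567 ± 0.0898 to 0.776 ± 0.0429 (SD, n = 3) without overlap. HNRNPA1 to HNRNPA2B1, SRSF9 to SRSF1 and HNRNPD to HNRNPDL had overlapping groups.

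**Figure D2:**
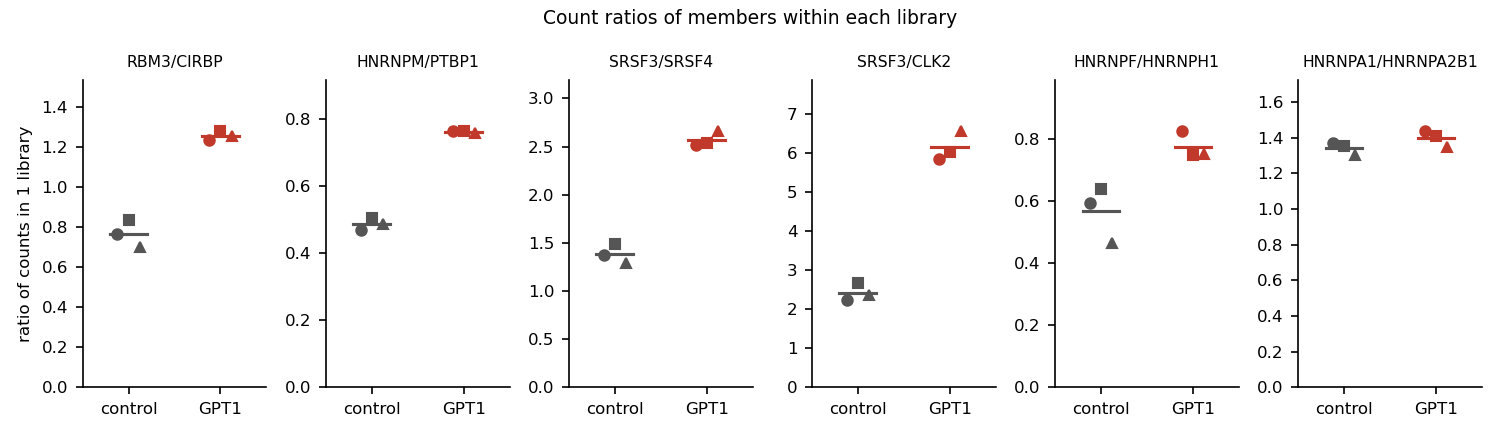
Ratios of counts of 6 pairs of members within each library (y axes from 0, no unit), with grey control and red GPT1 libraries on the x axis, 1 mark per library and a line at the mean. RBM3/CIRBP, HNRNPM/PTBP1, SRSF3/SRSF4, SRSF3/CLK2 and HNRNPF/HNRNPH1 are separated between the groups, while HNRNPA1/HNRNPA2B1 overlaps.

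Summed over each role, the SR proteins went from 1576 ± 86.7 to 1965 ± 43.3 CPM, the hnRNPs from 10175 ± 302 to 10851 ± 333 CPM, the cold-inducible pair from 465 ± 43.5 to 593 ± 23.4 CPM and the CLK kinases from 258 ± 15.2 to 197 ± 10.4 CPM (SD, n = 3). None of these sums overlapped between the groups. All members together took 1.27% to 1.29% of the counts in the control libraries and 1.35% to 1.42% in the GPT1 libraries.

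Levels were compared between genes as CPM per kilobase of the median protein-coding transcript in GENCODE 29. In the control libraries the order was led by HNRNPC (920.1 ± 70.1 CPM per kb), HNRNPA1 (603 ± 26.2), HNRNPK (365 ± 10.6) and HNRNPAB (316 ± 43.3). The last 2 of these overlapped within their SD, as did HNRNPU (244 ± 8.32) and CIRBP (242 ± 15.1), which followed. HNRNPM (113 ± 16.8) and RBM3 (107 ± 14.8) lay at ranks 19 and 20 and overlapped, and SRSF3 (84.2 ± 6.17) lay at rank 24. The lowest levels were those of CLK4 (6.94 ± 1.99), HNRNPUL2 (8.59 ± 0.717), SRSF6 (10.6 ± 0.995) and SRSF8 (12.2 ± 1.11). In the GPT1 libraries HNRNPM, RBM3 and SRSF3 reached 184, 175 and 153 CPM per kb. The order rests on the transcript taken: by the longest transcript HNRNPK led with 347 and HNRNPC followed with 327 CPM per kb.

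**Figure D3:**
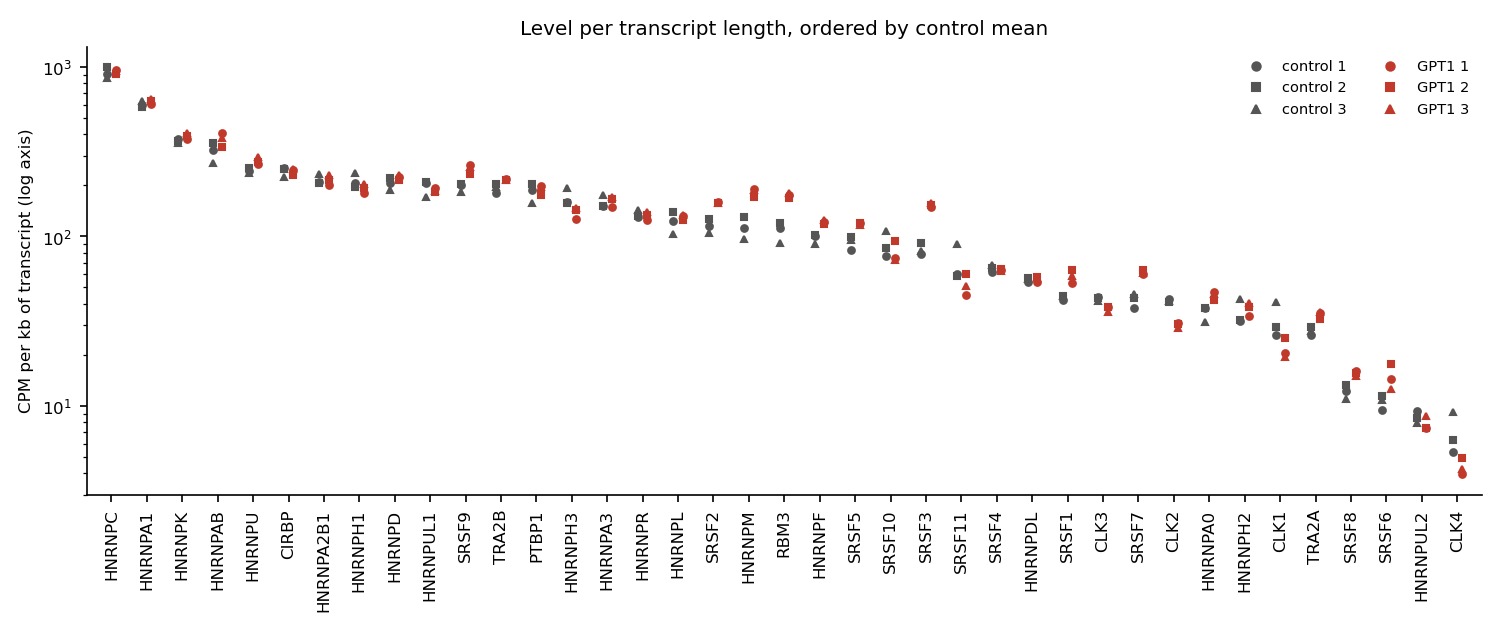
CPM per kilobase of transcript (log axis) for each member, ordered from left to right by the control mean, with 1 mark per library, grey for control and red for GPT1. Levels run from 920.1 CPM per kb for HNRNPC to 6.94 CPM per kb for CLK4 in the control libraries.

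The 6 libraries also differed in how counts depended on transcript length and base composition. Over 17436 genes, the log2 fold change had a Spearman correlation of -0.33 with the length and 0.31 with the GC content of the longest transcript. The deviation of a library from the mean of all libraries had a correlation with GC content of -0.52 in control replicate 3, 0.47 in GPT1 replicate 1 and 0.27 in GPT1 replicate 3, and between -0.12 and 0.08 in the others. With length, this deviation had correlations of 0.29, 0.06 and 0.30 in the control libraries and -0.38, -0.14 and -0.24 in the GPT1 libraries. The sign of the length trend thus followed the groups. These genes come from the same libraries and are not independent replicates. Among the 39 members, whose libraries are also shared, the ratio of control replicate 3 to the other control libraries had a correlation of -0.55 with the GC content of the principal transcript. The members' log2 fold changes had -0.03 with that GC content and 0.11 with transcript length. The pattern of a maximum in control replicate 3 and in GPT1 replicate 2 was found in 7 members (SRSF1, SRSF4, SRSF7, SRSF10, SRSF11, CLK1 and CLK4) and in 26.7% of all tested genes.

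Each library was therefore also corrected by a smooth function of length and GC content. With the longest transcript of each gene, 22 members were higher and 4 lower past the threshold, with a median log2 fold change of 0.34, against 19.8% of all tested genes higher and 14.8% lower. With the principal transcript, a choice added after the data were seen, 17 members were higher and 4 lower, with a median of 0.16, against 19.8% of all tested genes higher and 15.2% lower. SRSF3 was further from 0 under the correction, at 1.15 ± 0.11 and 1.20 ± 0.11. HNRNPM (0.64 and 0.65) and RBM3 (0.67 and 0.70) were close to their uncorrected values, and CIRBP did not pass (-0.02 and -0.11). SRSF6 became 0.77 and 0.82, and HNRNPA0 0.73 and 0.74. CLK1 became -0.23 and -0.42 and CLK4 -0.29 and -0.39, still past the threshold, while CLK2 was -0.55 and -0.56. SRSF11, the member with the lowest fold change that did not pass, became -0.05 and -0.06.

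Other members depended on which transcript was taken. SRSF4 changed from -0.03 to 0.37, HNRNPH1 from -0.15 to 0.30 and HNRNPR from -0.03 to 0.50 with the longest transcript, all past the threshold, but had -0.09, -0.15 and 0.05 with the principal transcript and did not pass. HNRNPU (0.74 and 0.55), TRA2B (0.43 and 0.29) and HNRNPA1 (0.23 and 0.27) passed with both. HNRNPA2B1 (0.38), HNRNPA3 (0.46), HNRNPD (0.50) and, on the lower side, HNRNPH3 (-0.18) passed with the longest transcript alone, and HNRNPK (0.24) and, on the lower side, CLK3 (-0.28) with the principal transcript alone. SRSF1 (0.56 and 0.32), SRSF5 (0.53 and 0.34) and SRSF9 (0.35 and 0.23) passed with both and were larger by the longest transcript. The uncorrected log2 fold changes of the members had a Spearman correlation of 0.94 with those corrected by the principal transcript (n = 39 genes of the same libraries).

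**Figure D4:**
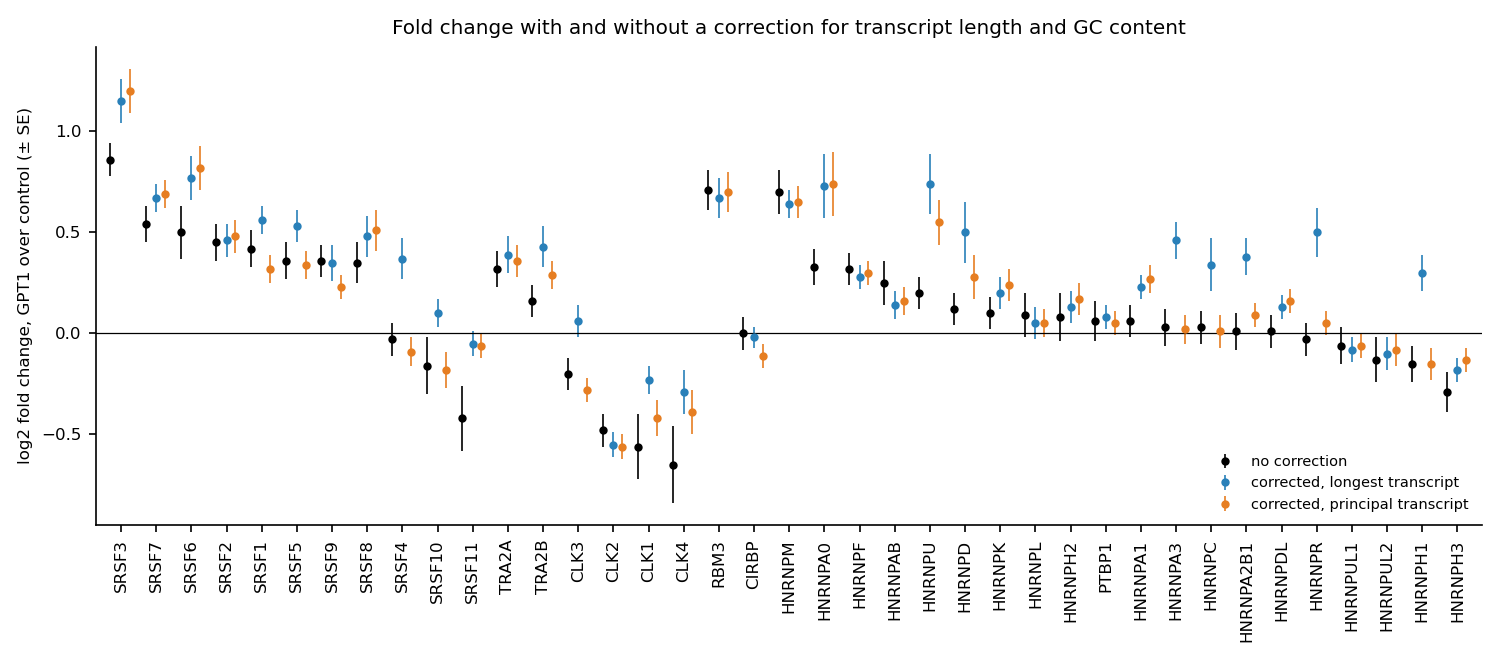
Log2 fold change of each member (GPT1 over control, y axis, points with SE bars) without correction in black, corrected by the longest transcript in blue and by the principal transcript in orange. SRSF3, RBM3, HNRNPM and CLK2 keep their side under all 3, while SRSF4 and HNRNPH1 are above 0 with the longest transcript alone.

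The labels name no counting tool and no strand setting. Reads of a gene and an overlapping gene on the other strand may not have been told apart. The rows of genes that overlap SRSF9 (GATC, 33.4% of the counts of SRSF9 over the 6 libraries), CLK2 (HCN3, 42.6%) and CLK3 (EDC3, 149%) on the opposite strand make these members uncertain. The same holds to a lesser degree for HNRNPA2B1 (CBX3, 18.1%), HNRNPAB (PHYKPL, 15.9%), HNRNPUL1 (TGFB1, 13.5%) and SRSF2 (MFSD11, 8.36%). The antisense rows at RBM3 and CIRBP held 0.864% and 0.938% of the member's counts. Near-identical copies matter most for HNRNPA1, which has 75 pseudogene rows, 26 of them with counts that sum to 18.3% of its own. The pseudogene rows of SRSF3 held 0.0368% of its counts, those of HNRNPM held none, and RBM3 had no such row.

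The median coefficient of variation was 8.76% in the control and 5.12% in the GPT1 libraries over the members, against 9.86% and 7.46% over 11727 tested genes with a mean of at least 5 CPM. SRSF11, CLK1 and CLK4 had the widest control spread among the members, and in each of them control replicate 3 was the highest, at 1.52, 1.48 and 1.57 times the mean of the other control libraries. HNRNPM and RBM3 had their lowest control value in that library, at 0.802 and 0.786 times the mean of the others, and SRSF3 stood at 0.969 times.

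Beyond the members, 153 genes of 7 related lists were read from the same fit, of which 146 were tested, 22 were higher and 22 lower. Among the Sm core, U1 and U2 proteins, the constant parts of the splicing machinery, 8 of 26 were higher and 1 lower (median log2 fold change 0.21), and among the proteins of the U4/U6.U5 tri-snRNP and the LSM ring 6 of 23 were higher and none lower (0.17). Among SR-related and exon junction proteins 1 of 27 was higher and 5 lower (-0.15). In the list of kinases and import receptors 1 of 12 was higher and 3 lower (-0.20). Among hnRNP-like proteins 2 of 25 were higher and 3 lower (0.05), among other splicing regulators 3 of 26 were higher and 8 lower (-0.11), and among cold-shock domain proteins 1 of 7 was higher and 2 lower (-0.11). Over all tested genes 10.5% were higher and 14.6% lower, and the lists themselves were not tested. The 22 higher genes became 11 without control replicate 1, 10 without GPT1 replicate 1 and 8 without GPT1 replicate 3, and the 22 lower genes became 8 and 7 without GPT1 replicate 1 and GPT1 replicate 3. After the correction for length and GC content, 47 were higher with the longest and 40 with the principal transcript, and 15 and 19 were lower.

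**Figure D5:**
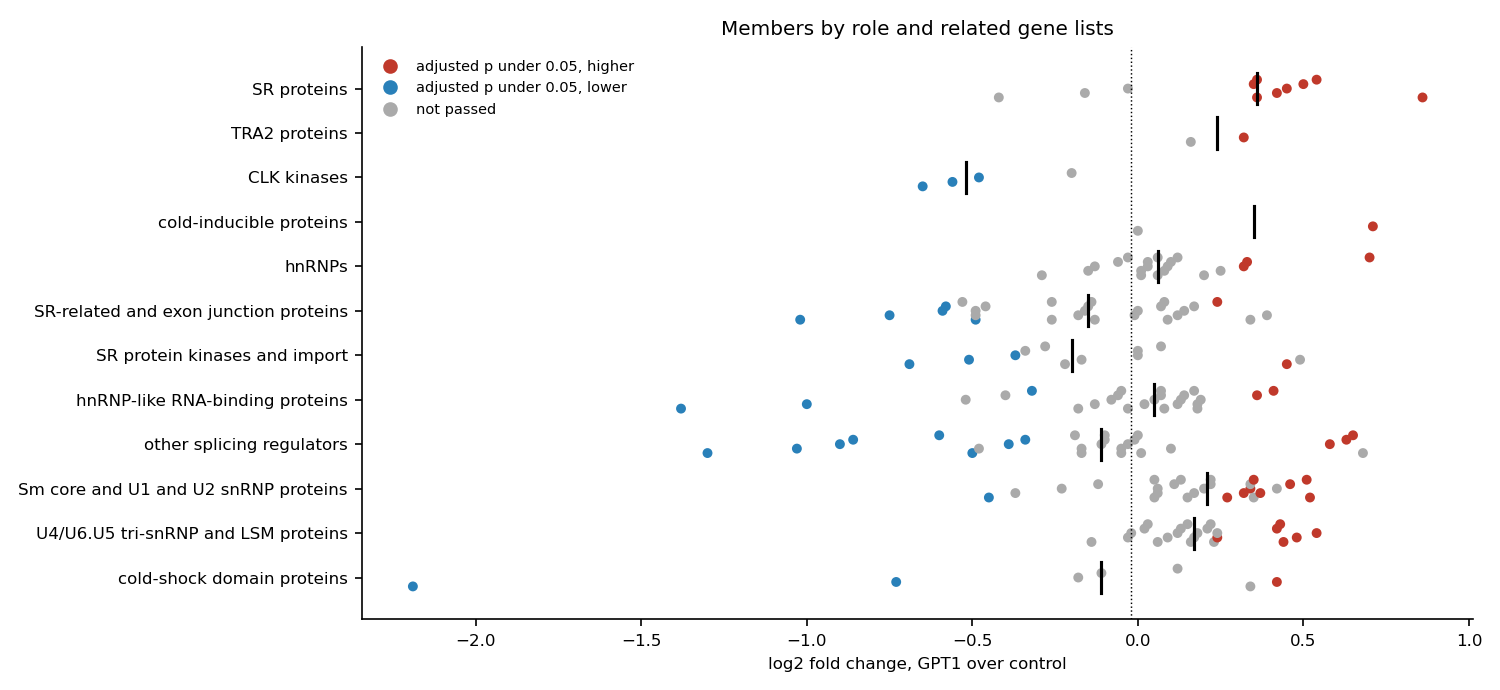
Log2 fold change (GPT1 over control, x axis) of every tested gene in the 5 roles of the members and the 7 related lists (rows), 1 point per gene, red for higher and blue for lower at an adjusted p under 0.05 and grey for not passed, with a black bar at each row's median and a dotted line at the median of all tested genes, -0.02. Red points make up 8 of the 11 SR proteins, whose median is 0.36, and the 4 CLK kinases lie left of the line with a median of -0.52.

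In the core lists, the Sm proteins SNRPG (100.2 ± 6.81 to 143 ± 9.61 CPM, log2 fold change 0.51, adjusted p = 0.00416, edgeR), SNRPD3 (0.52, adjusted p = 0.00435) and SNRPF (0.46, adjusted p = 0.00614) rose. The U1 protein SNRPA fell by 0.45 on the log2 scale (adjusted p = 0.0137, edgeR). It missed the threshold without control replicate 1 (-0.40) and without GPT1 replicate 3 (-0.48). LSM3 (0.54, adjusted p = 0.00357), LSM5 (0.48, adjusted p = 0.0104) and LSM7 (0.43, adjusted p = 0.0105), subunits of the ring that binds the end of U6 RNA, rose, as did the helicase DDX23 (0.44, adjusted p = 0.00587, edgeR). After the corrections LSM5 had 0.69 and 0.75 and LSM7 0.26 and 0.26, all past the threshold. LSM5 missed the threshold without GPT1 replicate 3 (0.47), and LSM7 without GPT1 replicate 1 (0.39) and without GPT1 replicate 3 (0.41).

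Among SR-related proteins, RSRC2 (86.8 ± 18.0 to 57.8 ± 4.27 CPM, log2 fold change -0.58, adjusted p = 0.0137, edgeR) and NKTR (-1.02, adjusted p = 0.0222) fell and still passed after both corrections, at -0.40 and -0.36 for RSRC2 and -0.47 and -0.62 for NKTR. Both missed the threshold without GPT1 replicate 1 (-0.53 and -0.89) and without GPT1 replicate 3 (-0.59 and -0.96), and NKTR also by DESeq2. PPIG, a cyclophilin with an arginine- and serine-rich tail (-0.75, adjusted p = 0.0282), and SREK1 (-0.59, adjusted p = 0.0300) fell in edgeR, but after the corrections PPIG had -0.21 and -0.16 and SREK1 -0.01 and -0.06, which did not pass. They also missed it without GPT1 replicate 1 (-0.63 and -0.48) and without GPT1 replicate 3 (-0.76 and -0.60). In these 4 genes control replicate 3 was the highest library, and without it NKTR was -0.58, PPIG -0.41 and SREK1 -0.34, all past the threshold.

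Among the other kinases and the import receptors listed, SRPK2 (66.5 ± 5.74 to 51.4 ± 4.80 CPM, log2 fold change -0.37, adjusted p = 0.0279, edgeR) fell. It had -0.18 and -0.14 after the corrections, the second of which did not pass. The kinase DYRK2 (-0.51, adjusted p = 0.0239) had -0.09 and -0.07 after the corrections, and the import receptor TNPO1 (-0.69, adjusted p = 0.0266) had -0.11 and -0.54, of which only the last passed. DYRK1B rose (0.45, adjusted p = 0.0334, edgeR; 0.43 under both corrections). All of these missed the threshold when GPT1 replicate 1 or GPT1 replicate 3 was left out, with values of -0.29 and -0.40 for SRPK2, -0.43 and -0.47 for DYRK2, -0.57 and -0.65 for TNPO1 and 0.41 and 0.45 for DYRK1B. SRPK2 (-0.38) and DYRK1B (0.51) missed it without control replicate 1 as well, and TNPO1 passed at -0.40 without control replicate 3. The import receptors TNPO2 (205 ± 15.4 to 216 ± 10.8 CPM, adjusted p = 0.559, edgeR) and TNPO3 (138.2 ± 7.49 to 137.8 ± 8.20 CPM, adjusted p = 0.979, edgeR) did not pass. So the fall of TNPO1 is not a fall of the import receptors as a group.

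Among hnRNP-like proteins, PTBP3, a paralog of PTBP1, had 68.7, 60.6 and 91.0 CPM in the control libraries and 30.0, 44.9 and 34.8 CPM in the GPT1 libraries. The groups were apart, and the log2 fold change was -1.0 ± 0.17 (adjusted p = 0.00366, edgeR), with -0.49 and -0.69 after the corrections. The helicase DHX9 rose from 264 ± 18.1 to 339.8 ± 29.9 CPM (0.36, adjusted p = 0.0183, edgeR), with 0.51 and 0.55 after the corrections. It missed the threshold without control replicate 1 (0.32) and without GPT1 replicate 3 (0.32). MATR3 is uncertain: 2 rows carry its symbol, with 133 and 6 counts over the 6 libraries. The first had a log2 fold change of -1.38 (adjusted p = 0.0271, edgeR), which missed the threshold without control replicate 1 (-1.48), without GPT1 replicate 1 (-1.21), without GPT1 replicate 3 (-1.08) and with the longest-transcript correction (-0.94).

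Among other splicing regulators, MBNL2 (21.1 ± 6.54 to 8.56 ± 1.31 CPM, log2 fold change -1.30, adjusted p = 0.00236, edgeR), a muscleblind protein, and NOVA2 (-0.90, adjusted p = 0.00581), known from neuronal splicing, fell. RBM4B (0.63, adjusted p = 0.00392) and RBM38 (0.58, adjusted p = 0.00771, edgeR) rose. These 4 genes passed under both corrections, MBNL2 at -0.89 and -0.83. Among cold-shock domain proteins, which have a cold-shock domain in place of the RNA recognition motif of RBM3, YBX2 went from 3.32 ± 0.645 to 0.728 ± 0.25 CPM (-2.19 ± 0.26, adjusted p = 0.000464, edgeR). LIN28B, which blocks let-7 maturation, went from 89.1 ± 21.4 to 53.6 ± 8.91 CPM (-0.73, adjusted p = 0.0125, edgeR), with -0.32 and -0.28 after the corrections. It missed the threshold without GPT1 replicate 1 (-0.63) and without GPT1 replicate 3 (-0.71). CARHSP1 rose (0.42, adjusted p = 0.0298, edgeR) and missed the threshold without control replicate 1 (0.48), without GPT1 replicate 1 (0.39) and without GPT1 replicate 3 (0.38). CSDC2 had 0.34 (adjusted p = 0.0896, edgeR) and did not pass, but passed at 0.32 under both corrections and at 0.47 without GPT1 replicate 2.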

How the data were processed

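The samples were 6 mRNA libraries, 3 per group, and groups come from the labels. The authors deposited raw counts, whole numbers per gene and sample. Reads were aligned to GRCh38 with HISAT2 2.0, per the submitters' processing notes. For the counting step, the tool, annotation and strand option were not given in the sources used here. The members and gene lists were chosen with earlier results of these data known. Symbols came from a name table (60652 of 60664 rows matched), and spans, lengths and GC content from GENCODE 29.

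From the counts, genes were kept by filterByExpr (17638), libraries were scaled by TMM, and groups were compared in R 4.3.3 with edgeR 4.0.16 (quasi-likelihood F test, two-sided, Benjamini-Hochberg adjustment over all tested genes, threshold 0.05). CPM uses the TMM-scaled totals, and the SE is the log2 fold change over the root of F. The common biological coefficient of variation was 0.119. Replicate pairs differed by a chi-square per degree of freedom of 9.98 to 30.8, so no library was counted as a repeat of another. The depth sets the precision of low genes such as CLK4, which had 1890 counts in all.

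Alternatives were other scaling factors, no filter, DESeq2 1.42.0, voom (limma 3.58.1), a stricter adjusted p (0.01), a block by replicate number, leaving out libraries singly, and a smooth length and GC correction (mgcv 1.9.3). The fits were tested on simulated data. Values in every library are given for SRSF3, HNRNPM and RBM3, the 5 members with the largest change per direction among those past the threshold and the 3 with the highest level per length; up to 4 genes with the smallest adjusted p were named per related list. Some results that this rule took are not reported here. Further values by library, and the ratios, were chosen after the values were seen.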

Additional observations from a re-analysis of the deposited data

How the results depend on the processing

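With RLE, upper-quartile or total scaling, DESeq2 and voom, all 39 members kept their call. Over all settings the members' fold changes stayed on their side of the threshold in 536 comparisons, 27 of which (in 10 genes) changed sign with no call on either side. They newly passed with an unchanged sign in 19 comparisons and missed the threshold in 27. In 3 more they newly passed with a changed sign. The length and GC correction by the longest transcript turned SRSF4 to 0.37, HNRNPH1 to 0.30 and HNRNPR to 0.50, and gave 22 higher members and 47 higher genes of the related lists; the principal-transcript form, added after the data were seen, gave 40. Their construction removes trends with length and GC content from each library, and they cannot tell a technical trend from a biological one. At an adjusted p of 0.01, 1172 genes, 5 higher and 1 lower member, and 8 higher and 6 lower related genes remained past the threshold. With no filter 5 members were lower, SRSF11 and HNRNPH3 added. Leaving out a library gave 1443 to 4907 genes, 6 to 14 higher and 1 to 5 lower members, and 8 to 26 higher and 7 to 25 lower related genes. Same-numbered samples had correlated deviations of 0.14, -0.28 and -0.08, and control replicate 3 with GPT1 replicate 2 had 0.39. The libraries also differed in their trends with length and GC content, so these values cannot decide whether the numbers pair the samples. With the replicate block 3886 genes changed instead of 4430, and 10 members were higher (not SRSF8, TRA2A and HNRNPF) and 4 lower (with SRSF11). A member short of the threshold is not shown to have an equal level in both groups.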
